A study of Caenorhabditis elegans with 22 samples.

Results

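The genes described here are 8 molting genes of Caenorhabditis elegans, namely the apical matrix genes noah-1 and noah-2, the protease inhibitor gene mlt-11, the astacin protease genes nas-36 and nas-37, and mlt-8, mlt-9 and mlt-10. They were taken by their annotated gene symbols. They account for 14 of the 22548 non-control probe sets on the Affymetrix worm array, and for 8 of the 17118 genes that these probe sets name. The array holds short probes against each transcript, and a probe set is the group of probes that reads one transcript. Transcript levels were read in whole hermaphrodites picked by hand as young adults after a timed egg lay, on 22 arrays in 7 groups.

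The groups were the double mutant isp-1(qm150) ced-4(n1162), the double mutant nuo-6(qm200);ced-4(n1162), written nuo-6 ced-4 below, the single mutants ced-4(n1162), nuo-6(qm200) and isp-1(qm150), Bristol N2 wild type worms treated with 0.1 mM paraquat, and untreated Bristol N2 wild type worms. Each mutant or treated group had 3 arrays and untreated wild type had 4. The strain background of all groups was Bristol N2 per the labels. The product of isp-1 is the Rieske iron-sulfur protein of respiratory complex III, that of nuo-6 is part of complex I, and CED-4 is an adaptor in programmed cell death, where it switches on the caspase CED-3. Paraquat is a redox-cycling compound that makes superoxide. Each mutant group is a single allele in whole animals, so a difference belongs to that strain and cannot be assigned to a tissue.

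Nematodes grow through larval stages that each end in a molt, in which the epidermis secretes a new cuticle beneath the old one and the old one is then shed. Genes of the molt are transcribed in pulses, peaking late in every larval stage, and the adult does not molt again. In the nematode, the zona pellucida proteins NOAH-1 and NOAH-2 belong to the transient matrix that covers the epidermis while the cuticle is built, MLT-11 is a secreted protein with Kunitz-type protease inhibitor domains, NAS-36 and NAS-37 are secreted zinc metalloproteases needed to shed the old cuticle, and mlt-8, mlt-9 and mlt-10 are named for the molting defects that follow their knockdown.

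Values are log2 expression values after background correction and normalization, differences are the first named group minus the second on that scale, and errors of group means are SD. The test covered the 12639 probe sets with a value of 3.68, the table's median, or more on 3 or more arrays. Calls are those with an adjusted p under 0.05 (limma, Benjamini-Hochberg over these probe sets). Of the 8 genes, 6 were tested. mlt-10 reached that level on 2 arrays and nas-36 on 0, so both stood below it. mlt-9 and mlt-11 reached it on the 6 arrays of nuo-6 ced-4 and ced-4 and on 0 of the other 16 arrays. noah-2 reached it on those 6 arrays and on 2 others. These 3 genes entered the test only through the groups in which they were high, so they had to differ between groups, and counts over the tested genes carry no weight of their own. Overlap between groups is given only to describe single genes, since the share of all probe sets without overlap is not given here. Because a value near the bottom of the scale lies close to the array's background, the size of a difference from such a value is uncertain. Each level is relative to the RNA of whole animals on the array after normalization, and is not an amount per animal. Fewer cells of a type and less RNA per cell cannot be told apart.

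The labelled stage was checked first. The yolk protein genes and the adult collagen gene col-19 had a mean of 13.15 to 14.05 on every array, near the top of the scale. The ced-4 transcript was lower in the groups that carry the ced-4 allele. It stood at 5.70 ± 0.16 in isp-1 ced-4, 5.09 ± 0.16 in nuo-6 ced-4 and 5.72 ± 0.15 in ced-4 (n = 3 each), against 7.62 ± 0.26 in wild type (n = 4). The arrays of some groups were closer to each other than those of others. The median SD within a group was 0.126 in nuo-6 ced-4 and 0.124 in ced-4, against 0.192 to 0.298 in the other 5 groups. The arrays within ced-4 correlated at 0.9974 to 0.9975 over all probe sets, and wild type arrays at 0.9752 to 0.9927. isp-1 replicate 1 correlated at 0.9961 with nuo-6 replicate 1 and at 0.9892 with isp-1 replicate 2. The labels call the samples biological replicates without naming separate cultures, so p-values measure the spread between these samples, which may be technical.

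The ced-4 mutant was compared with wild type to read the molting genes without the mitochondrial mutations. mlt-8, noah-1, mlt-11, noah-2 and mlt-9 rose in ced-4, by 1.45 to 5.13 on the log2 scale, and nas-37 was at the wild type level. With no filter, so that all 8 genes were tested, 7 of 8 were called higher, all but nas-37. Over all probe sets 6.51% were called higher with the filter and 5.04% without it.

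**Figure D1:**
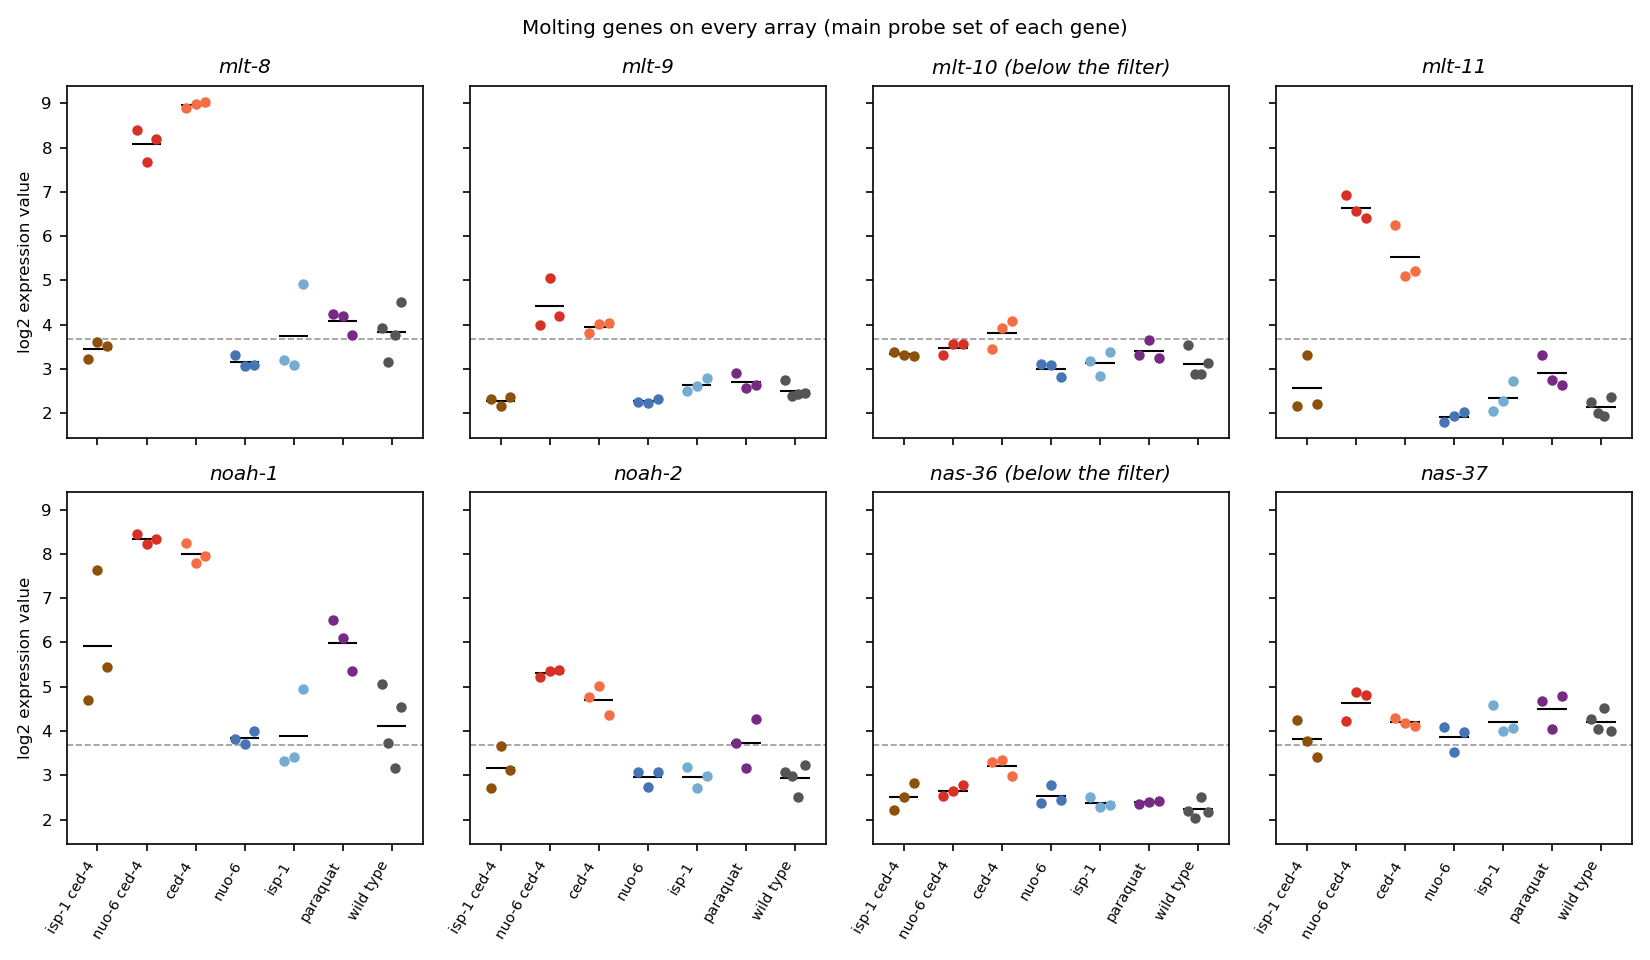
The log2 expression value of the main probe set of each molting gene on each of the 22 arrays, with one panel per gene; points are arrays, short lines are group means and the dashed line is the table median of 3.68. In the upper row mlt-8, mlt-9 and mlt-11 are high in nuo-6 ced-4 and ced-4 alone, while noah-1 in the lower row also spreads upward in isp-1 ced-4 and paraquat, and nas-36 and nas-37 stay within a narrow range.

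Among the matrix genes, noah-1 (C34G6.6, chromosome I) was at 8.25, 7.80 and 7.94 on the ced-4 arrays, against 5.07, 3.73, 3.17 and 4.54 on the wild type arrays. All 3 ced-4 arrays lay above all 4 wild type arrays, and the ced-4 arrays differed less among themselves than the wild type arrays did. The difference was 3.87 (SE 0.56, adjusted p = 6.34e-05). Its second probe set, which reads lower, differed by 1.94 (adjusted p = 0.000146). noah-2 (F52B11.3, chromosome IV) was at 4.76, 5.01 and 4.35 in ced-4, against 3.07, 2.99, 2.51 and 3.23 in wild type, again without overlap. It rose by 1.76 (SE 0.25, adjusted p = 5.81e-05).

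mlt-11 (W01F3.3, chromosome V), the protease inhibitor, was at 6.26, 5.11 and 5.20 in ced-4, against 2.26, 2.01, 1.94 and 2.37 in wild type. The ced-4 values are well above the filter and the wild type values near the floor of the scale. The difference was 3.38 (SE 0.29, adjusted p = 7.67e-08). Of the astacins, nas-37 (C17G1.6, chromosome X) was not called, at 4.31, 4.18 and 4.12 in ced-4, against 4.27, 4.04, 4.52 and 4.00 in wild type. Its difference was -0.01, with a 95% interval from -0.50 to 0.49, so a change of the size seen in noah-2 lies outside the interval. nas-36 (C26C6.3, chromosome I) was at 3.29, 3.34 and 2.98 in ced-4, against 2.20, 2.03, 2.51 and 2.18 in wild type. The groups did not overlap, but all its values are below the filter. In the fit with no filter it rose by 0.97 (adjusted p = 0.000131).

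mlt-8 (W08F4.6, chromosome II) had the widest range of the 8 genes. It was at 8.90, 8.97 and 9.03 in ced-4, against 3.92, 3.17, 3.76 and 4.51 in wild type. The ced-4 arrays lay close together, and the difference of 5.13 (SE 0.35, adjusted p = 2.67e-09) is 35-fold. mlt-9 (F09B12.1, chromosome X) was at 3.82, 4.01 and 4.03 in ced-4, against 2.75, 2.38, 2.45 and 2.45 in wild type. It rose by 1.45 (SE 0.18, adjusted p = 1.26e-05), without overlap but from a level near background. mlt-10 (C09E8.3) lies on chromosome II, with 4 protein-coding genes between it and mlt-8 in the RefSeq gene order. It was at 3.45, 3.94 and 4.07 in ced-4, against 3.55, 2.89, 2.90 and 3.14 in wild type. Here one wild type array overlapped the ced-4 arrays. With no filter the difference was 0.70 (adjusted p = 0.0141), and that of its second probe set was 1.03 (adjusted p = 0.00372).

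In the nuo-6 ced-4 double mutant, 5 of the 6 tested genes rose against wild type, by 1.91 to 4.49, while 14.2% of all probe sets were called higher. With no filter 6 of 8 were called higher, where 9.63% of all probe sets were. noah-1 was at 8.45, 8.23 and 8.33 in nuo-6 ced-4, against the wild type values above, a difference of 4.21 (SE 0.56, adjusted p = 1.68e-05). noah-2 was at 5.22, 5.35 and 5.38, a difference of 2.37 (SE 0.25, adjusted p = 1.25e-06). mlt-11 was at 6.92, 6.57 and 6.41, a difference of 4.49 (SE 0.29, adjusted p = 1.97e-09). In all of these, every nuo-6 ced-4 array lay above every wild type array, which again only describes each gene.

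mlt-8 was at 8.40, 7.67 and 8.20 in nuo-6 ced-4, a difference of 4.25 from wild type (SE 0.35, adjusted p = 4.87e-08). mlt-9 was at 3.99, 5.05 and 4.21, with replicate 2 the highest, and differed by 1.91 (SE 0.18, adjusted p = 3.70e-07). nas-37 was at 4.22, 4.89 and 4.82, overlapped wild type and was not called (difference 0.43, adjusted p = 0.171). With no filter nas-36 at 2.53, 2.64 and 2.78 gave 0.42 (adjusted p = 0.0477), and mlt-10 at 3.32, 3.57 and 3.57 gave 0.37 (adjusted p = 0.163). mlt-10 had reached the filter on 2 ced-4 arrays, and neither gene reached it on any nuo-6 ced-4 array.

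Set against nuo-6, the double mutant had all 6 tested genes higher, beside 11.2% of all probe sets. That share was 14.8% after cyclic loess normalization between arrays, under which higher calls made up 53.1% of all calls in place of 37.6%. For mlt-8 the nuo-6 ced-4 arrays at 8.40, 7.67 and 8.20 stood against nuo-6 arrays at 3.33, 3.07 and 3.10, and the difference was 4.93 (SE 0.37, adjusted p = 1.99e-08). mlt-11 differed by 4.72, noah-1 by 4.50, noah-2 by 2.35 and mlt-9 by 2.15, all without overlap. nas-37 was called in this comparison, by 0.78 (SE 0.25, adjusted p = 0.0263), with nuo-6 ced-4 at 4.22, 4.89 and 4.82 against nuo-6 at 4.09, 3.52 and 3.98. That call was lost without nuo-6 ced-4 replicate 2 (0.65, adjusted p = 0.108) or 3 (0.69, adjusted p = 0.0935), and without nuo-6 replicate 2 (0.60, adjusted p = 0.123).

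Set against ced-4, nuo-6 ced-4 had 1 call among the tested genes, mlt-11, beside 8.88% of all probe sets called higher. mlt-11 was higher by 1.11 (SE 0.31, adjusted p = 0.0197), with no overlap between the groups. The probe set without the cross-binding suffix gave 1.06 (adjusted p = 0.000635) and the other one with that suffix 0.91 (adjusted p = 0.0531). The call of the main probe set was lost without ced-4 replicate 2 (0.90, adjusted p = 0.103), ced-4 replicate 3 (0.95, adjusted p = 0.0907) or nuo-6 ced-4 replicate 1 (0.97, adjusted p = 0.0871). mlt-8 was 0.88 lower in nuo-6 ced-4 without overlap but was not called (adjusted p = 0.117). In a fit of only these 2 groups mlt-8 was called lower (-0.88, adjusted p = 0.00754) and noah-2 was called higher (0.61, adjusted p = 0.0207), beside mlt-11. That fit also called many more of all probe sets than the shared model did, by the counts given under the processing below. Its added calls therefore carry no weight of their own. With no filter nas-36 was called lower by 0.55 (adjusted p = 0.0288), where 4.62% of all probe sets were called lower.

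The isp-1 ced-4 double mutant carries the same ced-4 allele, and its molting genes stood near the wild type level. Of the 6 tested genes only noah-1 was called higher than wild type, while 29.2% of all probe sets were. After cyclic loess that share was 20.8%, and higher calls were 45.0% of all calls in place of 58.0%. Scaling also mattered for the centre of this comparison. The median difference of all tested probe sets was 0.12 with the deposited values and -0.01 after cyclic loess.

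**Figure D2:**
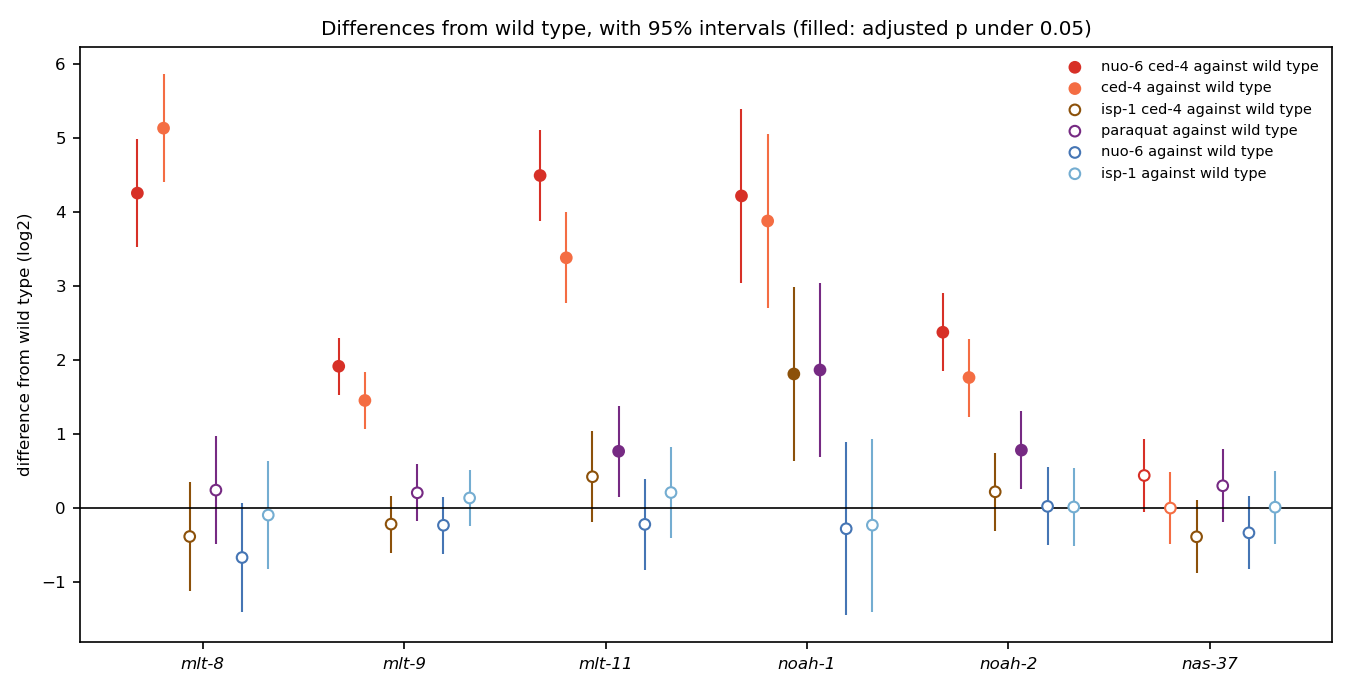
Difference of each group from wild type on the log2 scale for the main probe sets of the 6 tested molting genes, with 95% intervals from the model of all 22 arrays; filled points were called at an adjusted p under 0.05. In nuo-6 ced-4 and ced-4 all genes but nas-37 lie above 0 and were called, while in isp-1 ced-4 only noah-1 was called, and in nuo-6 and isp-1 every interval includes 0.

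In isp-1 ced-4, mlt-8 was at 3.22, 3.60 and 3.52, mlt-9 at 2.32, 2.16 and 2.37, and noah-2 at 2.71, 3.66 and 3.11. Against wild type these gave differences of -0.39, -0.22 and 0.21, and none was called. mlt-11 was at 2.17, 3.31 and 2.21, with replicate 2 above the other two arrays. noah-1 was at 4.69, 7.64 and 5.45, so replicate 2 reached nearly the level of the ced-4 arrays and replicate 1 lay within the wild type range. Its difference from wild type was 1.81 (SE 0.56, adjusted p = 0.0121), and without that replicate 0.95 (adjusted p = 0.122). The second noah-1 probe set was not called (0.60, adjusted p = 0.104). In a fit of only the 2 groups the main probe set was not called either (adjusted p = 0.0977).

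nas-37 was at 4.25, 3.78 and 3.41 in isp-1 ced-4, a difference of -0.40 from wild type (adjusted p = 0.169). Without isp-1 ced-4 replicate 1 it was -0.61 and was called (adjusted p = 0.0493). mlt-10 was at 3.38, 3.32 and 3.30, and nas-36 at 2.21, 2.50 and 2.82. Both were below the filter and overlapped wild type. Replicate 2 held the highest value of its group for 4 of the 8 genes, and replicate 1 the lowest for 5.

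Against isp-1, the double mutant was called higher in noah-1 alone, beside 16% of all probe sets. The difference was 2.04 (SE 0.60, adjusted p = 0.0139), and the groups overlapped, since isp-1 ced-4 replicate 1 was at 4.69 and isp-1 replicate 3 at 4.94. The call was lost without isp-1 ced-4 replicate 2 (1.19, adjusted p = 0.101), without isp-1 replicate 1 (1.76, adjusted p = 0.0614) and without isp-1 replicate 2 (1.80, adjusted p = 0.0582).

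Set directly against ced-4, isp-1 ced-4 had 5 of the 6 tested genes lower, beside 20.9% of all probe sets. After cyclic loess 25.2% were lower, and higher calls were 45.8% of all calls in place of 59.9%. The median difference of all tested probe sets was 0.17, and 0.01 after cyclic loess, so these genes moved against that shift. mlt-8 fell by 5.52 (SE 0.37, adjusted p = 2.19e-09), mlt-11 by 2.96 (SE 0.31, adjusted p = 8.78e-07) and noah-1 by 2.07 (SE 0.60, adjusted p = 0.00775). mlt-9 fell by 1.67 (adjusted p = 3.02e-06) and noah-2 fell by 1.54 (adjusted p = 0.000154). No isp-1 ced-4 array of these genes reached the lowest ced-4 array, which describes each gene and is no result about them as a set. nas-37 gave -0.39 and was not called (adjusted p = 0.203). With no filter 6 of 8 were called lower, where 14.4% of all probe sets were, the sixth being nas-36 (-0.69, adjusted p = 0.00188).

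The difference between the backgrounds was tested itself, as the effect of isp-1 in ced-4 minus its effect in wild type worms. mlt-8, mlt-11, mlt-9 and noah-2 were called lower by this interaction, beside 9.7% of all probe sets. In wild type worms mlt-11, mlt-9 and noah-2 were near background, so a fall with isp-1 could hardly show there. The wild type mean of mlt-8, 3.84, also left no room for a fall as large as that seen in ced-4 worms. The interaction was -5.42 for mlt-8 (SE 0.51, adjusted p = 4.65e-07), -3.16 for mlt-11 (SE 0.43, adjusted p = 4.14e-05), -1.80 for mlt-9 (SE 0.27, adjusted p = 0.000126) and -1.55 for noah-2 (SE 0.37, adjusted p = 0.00789). For noah-1 it was -1.83 and was not called (SE 0.82, adjusted p = 0.124), although its second probe set was (-1.59, adjusted p = 0.0194). Without isp-1 ced-4 replicate 2 the main noah-1 probe set gave -2.69 and was called (adjusted p = 0.0131). With no filter nas-36 joined the called genes (-0.83, adjusted p = 0.0164), where 5.9% of all probe sets were called lower.

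The same interaction for nuo-6 called 0 of the 6 tested genes in the limma test, with 3 at an unadjusted p under 0.05, beside 10.9% of all probe sets in either direction, and higher calls were 54.1% of these, or 64.9% after cyclic loess. mlt-11 gave 1.34 (SE 0.43, adjusted p = 0.0518), just outside the threshold. It was called after median centring (adjusted p = 0.0431), in a fit of only the 4 groups (adjusted p = 0.0307) and with trend and robust options (adjusted p = 0.0499), and its probe set without the cross-binding suffix was called in the deposited scaling (1.26, adjusted p = 0.00575). For mlt-8 the interaction was -0.20, with an interval from -1.27 to 0.87, which does not reach the -5.42 found with isp-1. With no filter nas-36 was called lower (-0.86, adjusted p = 0.024), where 2.5% of all probe sets were.

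In the single mutants of the respiratory chain no molting gene was called. This was 0 of 6 in nuo-6, beside 32.8% of all probe sets called in either direction, and 0 of 6 in isp-1, beside 22%. In both, 0 of the 6 had an unadjusted p under 0.05 in the limma test. mlt-9, mlt-11 and noah-2 were below the filter on every wild type, nuo-6 and isp-1 array. A fall in them could hardly have been seen, so the lack of calls does not show that they were unchanged. mlt-8, with a wild type mean of 3.84, also had little room for a fall. In isp-1 higher calls were 56.1% of all calls, or 43.1% after cyclic loess. None of the 6 was called between nuo-6 and isp-1 either, in a comparison that called 0.00791% of all probe sets. There 0 of the 6 had an unadjusted p under 0.05 as well, which does not show that their levels were equal. In nuo-6, noah-1 was at 3.82, 3.70 and 3.99 and mlt-11 at 1.80, 1.93 and 2.02. In isp-1, mlt-8 was at 3.21, 3.09 and 4.92 and noah-1 at 3.31, 3.40 and 4.94. isp-1 replicate 3 therefore stood well above the other isp-1 arrays in both, and it held the highest value of its group for 5 of the 8 genes. The largest difference from wild type among the 6 was that of mlt-8 in nuo-6, -0.68, with an interval from -1.41 to 0.06.

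Paraquat gave rises of 0.76 to 1.86 in 3 of the 6 tested genes, beside 26.4% of all probe sets called higher. After cyclic loess that share was 17.8%, with higher calls 46.6% of all calls in place of 63.6%, and the median difference of all tested probe sets was -0.02 in place of 0.13. noah-1 was at 6.50, 6.10 and 5.35 on the paraquat arrays, all above the wild type arrays, a difference of 1.86 (SE 0.56, adjusted p = 0.0118). noah-2 was at 3.73, 3.16 and 4.28, which overlapped wild type, a difference of 0.78 (SE 0.25, adjusted p = 0.0187). mlt-11 was at 3.32, 2.76 and 2.63, above wild type but below the filter on each paraquat array, a difference of 0.76 (SE 0.29, adjusted p = 0.0442). The mlt-11 probe set without the cross-binding suffix was not called (0.21, adjusted p = 0.351), while the other one with that suffix was (0.88, adjusted p = 0.0212). The second noah-1 probe set was called as well (0.78, adjusted p = 0.0446), but not with no filter (adjusted p = 0.0621).

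The paraquat calls of the 3 main probe sets were not stable. Without paraquat replicate 1 none of the 3 was called, with noah-1 at 1.60 (adjusted p = 0.0612), noah-2 at 0.77 (adjusted p = 0.0502) and mlt-11 at 0.55 (adjusted p = 0.206). noah-2 was also lost without paraquat replicate 3 (0.50, adjusted p = 0.14) or wild type replicate 3 (0.63, adjusted p = 0.0579), and in a fit of only the 2 groups (0.78, adjusted p = 0.0782). mlt-11 was also lost after cyclic loess (0.68, adjusted p = 0.0776), after median centring (0.72, adjusted p = 0.054), with no filter (adjusted p = 0.0614), and without paraquat replicate 2 (adjusted p = 0.0657) or wild type replicate 1 (adjusted p = 0.0513), 2 (adjusted p = 0.0844) or 3 (adjusted p = 0.0912). mlt-8 at 4.24, 4.21 and 3.78, mlt-9 at 2.92, 2.57 and 2.64 and nas-37 at 4.68, 4.04 and 4.79 overlapped wild type and were not called.

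mlt-11 is read by 4 probe sets, and they did not all give the same picture. The pair with the highest means carry suffixes that mark possible binding to further transcripts, and they rose by 3.38 and 3.64 in ced-4 and by 4.49 and 4.55 in nuo-6 ced-4. One of the others has no such suffix and was at 4.79, 4.11 and 4.72 in nuo-6 ced-4 and 3.54, 3.66 and 3.25 in ced-4, against 2.28, 2.01, 2.21 and 2.28 in wild type. It was called too, by 2.35 and 1.29. The last stayed between 1.80 and 2.39 on all 22 arrays. Its values were at the bottom of the scale in every group, so it showed no difference and no level above background. Suffixes of this kind also mark the probe sets of mlt-9, noah-2, nas-36 and nas-37 and one of mlt-10, and their values may hold signal of related transcripts.

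**Figure D3:**
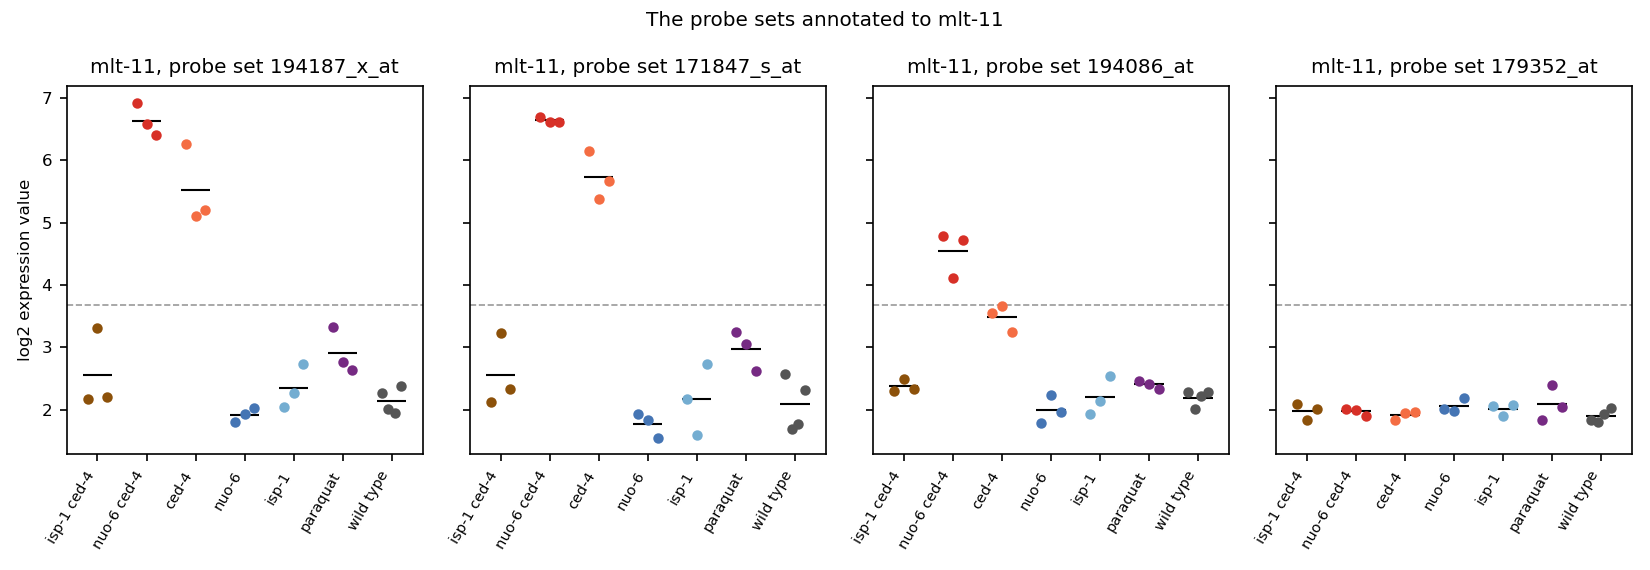
Log2 expression values of the 4 probe sets of mlt-11 on each array, one panel per probe set; points are arrays, short lines group means and the dashed line the table median of 3.68. The first 3 panels separate nuo-6 ced-4 and ced-4 from the other groups, by different amounts, and the last stays between 1.80 and 2.39 in all groups.

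Other genes of the molt were read from lists compiled from their known roles. Of the regulators and enzymes of molting, 25 of 34 on the array were tested. In ced-4 against wild type 9 rose and 0 fell, with a median difference of 0.12, beside 677 higher and 759 lower of all 9647 tested genes and a median of -0.04. In nuo-6 ced-4 against wild type 11 rose and 2 fell, with a median of 0.41, beside 1487 higher and 1566 lower and a median of -0.07. Between the double mutant isp-1 ced-4 and ced-4, 10 fell and 5 rose, with a median of -0.31, beside 2183 lower and 2844 higher and a median of 0.14. As with the 8 genes, some list members were tested only because 1 or a few groups were high.

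nhr-23, a nuclear hormone receptor that drives molting genes, was not called in ced-4 (-0.03, adjusted p = 0.929) or nuo-6 ced-4 (0.41, adjusted p = 0.0593). It was called higher in isp-1 ced-4 (0.65, adjusted p = 0.00287) and paraquat (0.64, adjusted p = 0.00397). Its order over the groups was therefore not that of mlt-8 or mlt-11. lin-42, the worm homologue of the clock gene period, was at 4.52 in nuo-6 ced-4 and 4.25 in ced-4, against 2.95 in wild type, and rose by 1.57 and 1.30 (adjusted p = 0.000122 and 0.00145). myrf-1, a membrane-bound transcription factor needed for molting, rose by 1.00 in nuo-6 ced-4 and 1.31 in ced-4, and also by 0.67 in isp-1 ced-4, 0.48 in isp-1 and 0.88 in paraquat (adjusted p = 0.00187, 0.0367 and 0.000206). lrp-1, a megalin-like receptor, rose by 1.07 in nuo-6 ced-4 and 0.52 in ced-4, and also by 0.49 in isp-1 ced-4, 0.55 in nuo-6 and 0.60 in isp-1 (adjusted p = 0.0137, 0.0107 and 0.00956). nhr-25, a second nuclear receptor of the molt, was below the filter. The probe sets of nhr-23 and myrf-1, and those of bli-3, mlt-7, qua-1, lpr-3, dpy-7 and rml-3 below, carry the cross-binding suffix. Their values may hold signal of related transcripts and are uncertain.

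bli-3, the dual oxidase that supplies peroxide for cuticle crosslinking, and the kinases nekl-2 and nekl-3 were not called in nuo-6 ced-4 or ced-4 against wild type. mlt-7, a peroxidase of the cuticle, was at 5.17 in isp-1 ced-4, against 7.67 in ced-4 and 7.13 in wild type. It fell by 2.50 against ced-4 (adjusted p = 5.02e-05) and fell by 1.96 against wild type (adjusted p = 0.000217). Picked after their values were seen, the largest rises of this list in ced-4 were those of acn-1 (3.65), which is related to angiotensin-converting enzyme, the hedgehog-related qua-1 (3.24) and the patched-related ptr-4 (2.94). In nuo-6 ced-4 they were 2.56, 2.72 and 1.97. Against ced-4, the isp-1 ced-4 arrays gave these 3 -4.86, -3.24 and -3.08.

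Of the other apical matrix genes, 8 of 23 were tested, and 6 rose and 0 fell in ced-4, 7 rose and 1 fell in nuo-6 ced-4, and 6 fell and 1 rose in isp-1 ced-4 relative to ced-4. The medians were 1.01, 1.14 and -1.42. Counts and medians over all tested genes in the same comparisons are those given above with the molting regulators. lpr-3, a lipocalin of the precuticle matrix, was at 6.50 in nuo-6 ced-4 and 5.70 in ced-4, against 2.07 in wild type, and rose by 4.43 and 3.63 (adjusted p = 1.87e-09 and 2.08e-08). In paraquat it rose by 1.12 (adjusted p = 0.00404), and it was the only gene of this list called there. fbn-1, let-653 and dpy-6, which encode further apical matrix proteins, were below the filter.

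Of the other astacins, 10 of 34 were tested. In ced-4 3 rose and 3 fell, beside 677 higher and 759 lower of all 9647 tested genes. In nuo-6 ced-4 3 rose and 2 fell, beside 1487 higher and 1566 lower. nas-38, an astacin active in the molt, was at 3.82 in nuo-6 ced-4 and 4.25 in ced-4, against 2.55 in wild type, and rose by 1.27 and 1.71 (adjusted p = 5.66e-05 and 2.19e-06). dpy-31, which processes procollagen, fell by 0.86 in ced-4 (adjusted p = 0.0401) and fell by 1.19 in paraquat (adjusted p = 0.00179), and gave -0.18 in nuo-6 ced-4 (adjusted p = 0.664). The astacins of this list thus had members on both sides.

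Some stage and tissue markers also differed between the groups, and others did not. The mean of the 6 adult genes (5 yolk protein genes and col-19) was 13.15 to 13.18 in nuo-6 ced-4 and 13.37 to 13.45 in ced-4, against 13.55 to 13.85 in wild type. All arrays of those 2 groups were below all wild type arrays. In isp-1 ced-4 it was 13.70 to 14.04. Of the 6 genes 4 fell and 0 rose in nuo-6 ced-4, and 2 fell and 0 rose in ced-4, while 5 rose in isp-1 ced-4 relative to ced-4. Of all 9647 tested genes 1566 fell in nuo-6 ced-4, 759 fell in ced-4 and 2844 rose in isp-1 ced-4 relative to ced-4. col-19 fell by 0.53 in ced-4 (adjusted p = 0.00442) and gave -0.03 in nuo-6 ced-4 (adjusted p = 0.866). The yolk gene vit-6 fell by 0.32 and by 0.41 in ced-4 and nuo-6 ced-4 (adjusted p = 0.0325 and 0.00385), and vit-2 was called in neither. The part of these markers in the molting gene differences was not tested.

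Germline genes moved differently. The mean of 7 sperm genes was 6.52, 4.71 and 4.43 in isp-1 ced-4 and 5.11 to 5.73 in paraquat, against 7.63 to 8.60 in wild type. All 7 fell in both groups, beside 2167 of all 9647 tested genes in isp-1 ced-4 and 1567 in paraquat. The mean of the sperm genes was 7.96 to 8.02 in nuo-6 ced-4 and 7.42 to 7.60 in ced-4. There 1 of 7 fell in each, beside 1566 and 759 of all tested genes. All 15 oocyte and early embryo genes rose in paraquat and 13 rose in isp-1 ced-4, beside 2494 and 2831 of all 9647 tested genes. Of the 15, 4 fell in nuo-6 ced-4, beside 1566 of all tested genes. In ced-4 their mean was 11.19 to 11.21, within the wild type range of 10.99 to 11.47. The 7 tested genes of the hypodermis, the tissue that makes the cuticle, had a mean of 8.86 to 8.88 in nuo-6 ced-4 and 8.65 to 8.67 in ced-4, against 8.32 to 8.50 in wild type. In each group 2 rose, the cuticle collagen genes rol-6 (1.94 and 1.68) and dpy-7 (1.05 and 0.77), and in ced-4 1 fell, which was col-19. Of all 9647 tested genes 1487 rose in nuo-6 ced-4, and 677 rose and 759 fell in ced-4. The median difference of the list was 0.04 in nuo-6 ced-4 and -0.04 in ced-4. None of these shifts was entered into the tests of the molting genes.

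**Figure D4:**
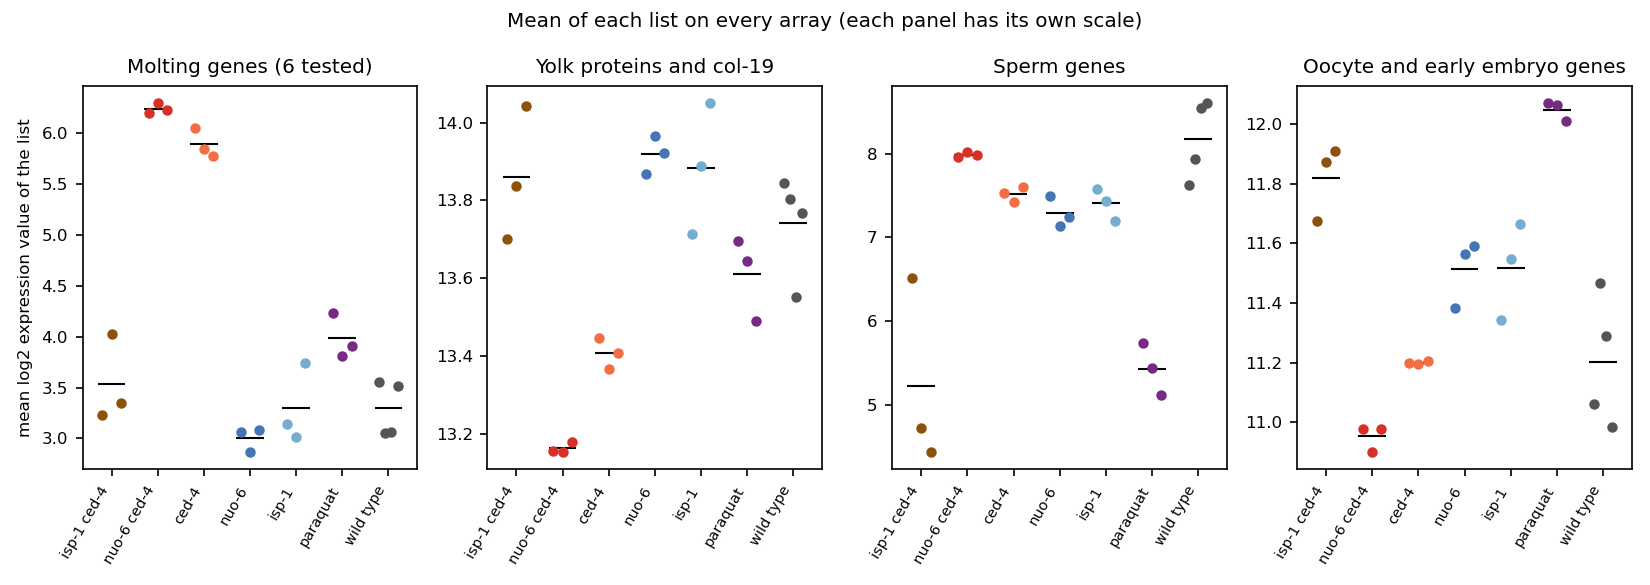
Mean log2 expression value of 4 gene lists on each array, for the 6 tested molting genes, 6 adult-stage genes, 7 sperm genes and 15 oocyte and early embryo genes; each panel has its own scale, points are arrays and short lines group means. The molting genes stand at 6.20 to 6.29 in nuo-6 ced-4 and 5.78 to 6.05 in ced-4, against 3.05 to 3.56 in wild type, and the adult-stage genes are lowest in the same 2 groups.

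Among themselves the 8 genes were set side by side by the root mean square difference of their centred values over the 22 arrays, as a description. mlt-10 and nas-36, both below the filter, were the closest pair at 0.31, followed by mlt-9 and noah-2 at 0.42. mlt-8 and nas-37 were the farthest apart at 2.14. From the mean profile of all 8, noah-2 was the closest at 0.30 and mlt-8 the farthest at 1.31, since mlt-8 moved over a much wider range. Of 9641 other tested genes the median distance from the profile was 1.11. The 10 closest were K08B12.1 (0.23), rml-3 (0.23), wrt-1 (0.28), T19C3.2 (0.29), lon-3 (0.32), T26C5.2 (0.33), T06G6.6 (0.33), Y64H9A.2 (0.33), col-58 (0.34) and lpr-4 (0.34). lon-3 and col-58 encode cuticle collagens, wrt-1 a hedgehog-related protein and lpr-4 a lipocalin-related protein. Each of the 10 differed by 1.73 or more in nuo-6 ced-4 and by 1.54 or more in ced-4 from wild type, and by -0.34 to 0.30 in isp-1 ced-4. The ranked genes are read on the same 22 arrays as the profile, so the ranking is no independent evidence.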

How the data were processed

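The deposited table held log2 expression values of 22625 probe sets on 22 arrays, made by the authors with GCRMA per the submitters' processing notes. The sources used here do not give the GCRMA version, its settings or whether the 22 arrays were normalized in 1 run. The log base was read from the range of 0.926 to 15.3. Arrays have no read depth, and their number limits the precision. No genome build was found in the labels or headers, so no coordinates are printed.

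From these values, 77 control probe sets were left out, gene symbols came from GEO's platform annotation, brought up to date through the entrez ID for 20701 of 20766 single-symbol probe sets, and 887 probe sets with several symbols and 895 with none were not named. Where several probe sets read a gene, the one of highest overall mean stands for it. The 7 groups shared 1 limma model of group means (limma 3.58.1, R 4.3.3), tested two-sided, with Benjamini-Hochberg adjustment within each of 13 comparisons. The steps were tested on simulated data. The named genes were the 8 molting genes, 19 genes listed by name and the 10 of closest profile. Of the 19, col-7 was not matched to a probe set. Promoter sequences were not used here. The genes, lists and tests were chosen with earlier results of these data known. The alternatives changed the filter (stricter or none), the scaling (cyclic loess or median centring), the model (trend and robust options, only the compared groups, or a replicate block) or the arrays, each left out once.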

Additional observations from a re-analysis of the deposited data

Results flagged for a closer look

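In the molting genes, the effect of isp-1 differed between the ced-4 background and wild type worms by the interaction test in 4 genes. The interaction was -5.42 for mlt-8, -3.16 for mlt-11, -1.80 for mlt-9 and -1.55 for noah-2 on the log2 scale. mlt-11, mlt-9 and noah-2 were tested only through the nuo-6 ced-4 and ced-4 arrays, in which they were high, so the count of 4 is no support by itself. Their wild type means of 2.15, 2.51 and 2.95 lie near background, so a fall with isp-1 could hardly show there. Their interactions are close to the differences of isp-1 ced-4 from ced-4 alone (-2.96, -1.67 and -1.54). In mlt-8 the groups stood at 3.45 ± 0.20 in isp-1 ced-4 and 8.97 ± 0.07 in ced-4, and at 3.74 ± 1.02 in isp-1 and 3.84 ± 0.55 in wild type (SD, n = 3, and 4 for wild type). The mlt-8 interaction is also close to the difference of isp-1 ced-4 from ced-4 alone (-5.52). Its wild type level leaves no room for a fall of that size with isp-1. Leaving out any single array kept 4 to 5 molting genes called by this interaction, beside 1371 to 2956 of all probe sets called in either direction. Those fits used the same tested genes, so this range is no support either.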

How the results depend on the processing

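Of 1095 differences of the tested molting genes under all alternatives, 1059 kept their side of the threshold, 26 lost their call, 10 gained one and 0 called ones changed sign. The 1059 include 42 differences that were called under neither setting and changed sign. The stricter filter (60th percentile, 5.28) tested only 3 of the genes (mlt-8, mlt-11 and noah-1), and all 3 were called in ced-4, nuo-6 ced-4, nuo-6 ced-4 against nuo-6 and isp-1 ced-4 against ced-4, and 2 in the interaction of isp-1 with ced-4. mlt-8 and mlt-11 reached 5.28 only on ced-4 and nuo-6 ced-4 arrays, so they had to differ between groups. These counts therefore carry no weight of their own. With no filter the molting genes called were 2 for nuo-6 ced-4 against ced-4 and 1 for the interaction of nuo-6 with ced-4. That interaction also had 1 after median centring, with trend and robust options and in the fit of only its groups. Fits of only the groups compared called 0 molting genes for isp-1 ced-4 against wild type and against isp-1, and 3 for nuo-6 ced-4 against ced-4 (mlt-11, mlt-8 and noah-2). Leaving out 1 array, the molting genes called ranged from 0 to 3 in paraquat, 0 to 2 for isp-1 ced-4 against wild type and 0 to 1 against isp-1, 5 to 6 for nuo-6 ced-4 against nuo-6, 0 to 1 in nuo-6 ced-4 against ced-4, 4 to 5 in the interaction of isp-1 and 0 to 1 in that of nuo-6.

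Over all probe sets, fits of only the groups compared called 853 for ced-4 in place of 1999, 2644 for nuo-6 ced-4 (4045), 2190 for nuo-6 (4150), 716 for isp-1 (2775), 2088 for isp-1 ced-4 against isp-1 (4193), 5426 for nuo-6 ced-4 against ced-4 (2192), 1307 for the interaction of isp-1 (2362) and 0 for nuo-6 against isp-1 (1, and 2 with no filter). The stricter filter called 900 for the interaction of nuo-6 (1372). Leaving out 1 array gave 1163 to 3404 for ced-4, 0 to 753 for nuo-6 against isp-1, 2748 to 4289 for isp-1 ced-4 against isp-1, 1408 to 1496 for nuo-6 ced-4 against ced-4, 1371 to 2956 for the interaction of isp-1 and 798 to 1959 for that of nuo-6.

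Same-numbered samples did not deviate together more than others: over 63 pairs the correlation of their deviations ran from -0.25 to 0.28 with a median of -0.01, and 12 were over 0.1. Over 144 pairs of different number it ran from -0.34 to 0.32 with a median of 0.001, and 25 were over 0.1. The numbers were therefore not taken as pairs. With the replicate block 1295 probe sets were called for ced-4, 897 for the interaction of nuo-6 and 0 for nuo-6 against isp-1. mlt-11 in paraquat lost its call with the block (0.84, adjusted p = 0.0568), and no other molting gene changed its call.

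Wild type levels of mlt-9, mlt-11 and noah-2, and all levels of mlt-10 and nas-36, lie near the array background, so their fold sizes are limited by it. The causes of the changes above were not tested, apart from the fewer genes that the stricter filter tests.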
